A study of Mus musculus with 6 samples.

Results

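The genes described are 9 Toll-like receptors, Tlr1, Tlr2, Tlr3, Tlr4, Tlr6, Tlr7, Tlr8, Tlr9 and Tlr13, together with Cd14, the co-receptor that hands lipopolysaccharide (LPS) to Tlr4. They were taken by symbol from the 54446 genes of the count table, and all 10 were found. Each had more than 3 counts in every library, and the lowest value was 14 counts for Tlr9 in M2 without drug.

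RNA of mouse bone marrow-derived macrophages (BMDMs) was sequenced in 6 libraries, 1 for each of 3 states with and without regorafenib, a multikinase inhibitor used in liver cancer. Bone marrow of male BALB/c mice aged 6 to 8 weeks was grown for 7 days in medium with 20% L929-conditioned medium, a source of CSF-1. M0 cells were not polarized, M1 cells had received IFN-γ at 20 ng/mL and LPS at 50 ng/mL, and M2 cells had received IL4 at 20 ng/mL, for 24 hours. Regorafenib at 1 µM was given 1 hour before polarization, and controls had DMSO. The study describes this timing for cells that were then polarized. It does not state how long the M0 cells were exposed to the drug. How many animals gave the cells of a library is not given in the sources used here. With 1 library per condition, a difference between 2 libraries has no replicate check. The 95% intervals below cover counting error only.

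Toll-like receptors are membrane proteins that bind conserved products of microbes. Tlr1, Tlr2, Tlr4 and Tlr6 sit at the cell surface and bind bacterial lipids and lipoproteins, and Tlr2 works in pairs with Tlr1 or Tlr6. Tlr3, Tlr7, Tlr8, Tlr9 and Tlr13 sit in endosomes and bind nucleic acids. Most of them signal through the adaptor Myd88 to NF-kB and the interferon regulatory factors. Macrophages carry many of these receptors, and LPS, which was part of the M1 stimulus, is the ligand of Tlr4.

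The stretches before the start sites of Tlr2, Tlr6 and Tlr8 are shown, because Tlr2 and Tlr8 were higher with regorafenib in both M0 and M2, because Tlr6 rose in M1, and because each stretch holds a motif searched for here. They come from RefSeq on GRCm38.p6 and are written 5′ to 3′ on the strand of the gene, which is the minus strand for all 3. Capitals mark the motif matches. Bases inside exons of the Gencode annotation were left out. Tlr9, also higher with regorafenib in M0 and M2, and Tlr1, also higher in M1, have a match too, but their stretches are not shown. The Tlr6 stretch lies inside the Tlr6 gene, between its outermost annotated start and a RefSeq start site further in.
Tlr2, chr3:83841768-83841858: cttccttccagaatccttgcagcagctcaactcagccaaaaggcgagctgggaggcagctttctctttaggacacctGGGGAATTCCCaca
Tlr6, chr5:64959167-64959416: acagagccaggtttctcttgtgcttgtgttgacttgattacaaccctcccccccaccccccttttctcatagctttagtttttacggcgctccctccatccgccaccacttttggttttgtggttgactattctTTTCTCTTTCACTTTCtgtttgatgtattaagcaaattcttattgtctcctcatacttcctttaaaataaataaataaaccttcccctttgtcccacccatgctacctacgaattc
Tlr8, chrX:167264330-167264579: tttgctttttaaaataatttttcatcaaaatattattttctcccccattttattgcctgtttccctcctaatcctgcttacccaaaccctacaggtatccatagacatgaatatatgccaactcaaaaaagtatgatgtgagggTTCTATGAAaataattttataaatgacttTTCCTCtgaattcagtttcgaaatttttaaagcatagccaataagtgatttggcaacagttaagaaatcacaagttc

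In the Tlr2 stretch the capitals hold overlapping matches to the NF-kB consensus, at positions -173 to -163 from the RefSeq start site. In the Tlr6 stretch they hold a pair of overlapping matches, on the opposite strand, to the interferon-stimulated response element (ISRE, searched as 2 runs of GAAA with any 2 bases between them), at -116 to -101. In the Tlr8 stretch they hold the interferon-gamma activated sequence (GAS, searched as TTCNNNGAA) at -106 to -98 and the PU.1 core (GAGGAA, on the opposite strand) at -77 to -72. The search covered both strands of windows from 250 bases before to 50 bases after a start site, and 9 such windows were given for 7 of the members. The NF-kB consensus was found for 2 of these 7 genes (Tlr2 and Tlr3), the ISRE for 1 (Tlr6), the GAS for 3 (Tlr1, Tlr6 and Tlr8), the PU.1 core for 4 (Tlr1, Tlr8, Tlr9 and Tlr13) and the cAMP response element TGACGTCA for 0. Counted by window, 2 of the 9 held the NF-kB consensus, 1 the ISRE, 3 the GAS, 4 the PU.1 core and 0 the cAMP response element. Of all 32851 promoter windows, 8.46% held the NF-kB consensus, 3.44% the ISRE, 8.3% the GAS, 28.3% the PU.1 core and 1.79% the cAMP response element. A match is a run of letters and not a measured binding site. Tlr4, Tlr7 and Cd14 had no window.

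The libraries held 25359309 to 34898342 counts. All 8 macrophage markers, among them Csf1r and Lyz2, were detected in every library, with a summed level of 22000 to 48400 CPM (counts scaled to a common library total). The T cell markers Cd3d and Cd3e were at 0 in all 6 libraries. The 3 B cell markers stayed at or under 3 counts each, Siglech of plasmacytoid dendritic cells was at 0, and the dendritic cell and fibroblast lists summed to at most 4.52 and 6.35 CPM. Of the neutrophil markers, Ly6g was at 0, and Mpo, a granule enzyme of myeloid precursors, was present at 80.7 to 155 CPM. The polarization markers Nos2 and Retnla followed the labels, with Nos2 at 15900 and 9200 CPM in the M1 libraries and at most 1.79 CPM elsewhere, and Retnla at 25.8 and 120 CPM in the M2 libraries and at most 0.0774 CPM elsewhere. In bulk RNA, fewer cells with a receptor and less receptor RNA per cell cannot be told apart.

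Levels are given as CPM after TMM scaling, in the order M0, M1 and M2, each as control and then regorafenib. Tlr2 (chr3:83836272-83841767) binds bacterial lipoproteins and was at 106 and 229 CPM in M0, at 271 and 364 CPM in M1 and at 15.2 and 52.8 CPM in M2. All 6 libraries were separate by their counting intervals, with M1 at the top, M2 at the bottom and the regorafenib library above its control in each state. Its range of 23.9-fold was the widest of the 10 genes. Tlr1 (chr5:64924679-64933563), which lets Tlr2 bind triacylated lipopeptides, was at 20.9 and 28.2 CPM in M0, at 144 and 205 CPM in M1 and at 32.6 and 33.4 CPM in M2. Tlr6 (chr5:64952031-64960097), the partner for diacylated lipopeptides, was at 28.0 and 41.3 CPM in M0, at 131 and 115 CPM in M1 and at 32.4 and 37.6 CPM in M2. Both partners were highest in the M1 libraries. The intervals of the M2 libraries overlapped for Tlr1, and those of the M0 and M2 regorafenib libraries overlapped for Tlr6. Tlr1 and Tlr6 are neighbours and share 7.89% and 7.09% of their 100-base words with each other, so a small part of their reads cannot be assigned to either with certainty.

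Tlr4 (chr4:66827584-66930284), the signalling receptor for LPS, was at 158 and 209 CPM in M0, at 74.9 and 86.8 CPM in M1 and at 264 and 261 CPM in M2. Cd14 (chr18:36725067-36726798), which delivers LPS to it, was at 1030 and 499 CPM in M0, at 4020 and 4300 CPM in M1 and at 271 and 201 CPM in M2. The receptor and its co-receptor thus had opposite orders of states, M2 over M0 over M1 for Tlr4 and M1 over M0 over M2 for Cd14. Only the M2 libraries overlapped for Tlr4, and none overlapped for Cd14. Per kilobase of exon, Cd14 stood at 20.9 times Tlr4 in M0 without drug, at 7.67 times with it, at 172 and 159 times in the M1 libraries and at 3.29 and 2.47 times in the M2 libraries.

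Among the endosomal receptors, Tlr13 (chrX:106143204-106160493), which recognizes bacterial ribosomal RNA, was at 475 and 421 CPM in M0, at 127 and 68.0 CPM in M1 and at 455 and 383 CPM in M2. All 6 values were separate, and the regorafenib library was below its control in each state. Tlr7 (chrX:167304929-167330558), a receptor for single-stranded RNA, was at 266 and 498 CPM in M0, at 168 and 174 CPM in M1 and at 245 and 282 CPM in M2. Its neighbour and relative Tlr8 (chrX:167242696-167264329) was at 112 and 343 CPM in M0, at 33.2 and 27.4 CPM in M1 and at 229 and 451 CPM in M2. Tlr8 was lowest in both M1 libraries, with no overlap among the 6 libraries, and Tlr7 was lowest in the M1 libraries too, which overlapped with each other.

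Tlr3 (chr8:45395665-45411080), which binds RNA with paired strands, was at 34.3 and 36.6 CPM in M0, at 57.1 and 46.8 CPM in M1 and at 23.4 and 24.3 CPM in M2. Its range of 2.44-fold was the narrowest, and the libraries with and without drug overlapped in M0 and in M2. An exon of Gm45542 on the opposite strand overlaps Tlr3 and had 0 to 5 counts. Tlr9 (chr9:106222598-106226883), the receptor for unmethylated CpG DNA, was the rarest member in every library. It had 68 counts in M0 without drug and 226 with it, while the M1 libraries held 51 and 52 and the M2 libraries 14 and 100. These counts amount to between 0.383 and 6.86 CPM, with the M0 regorafenib library highest and the M2 control lowest. The M0 control and both M1 libraries could not be separated in the order of Tlr9.

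**Figure D1:**
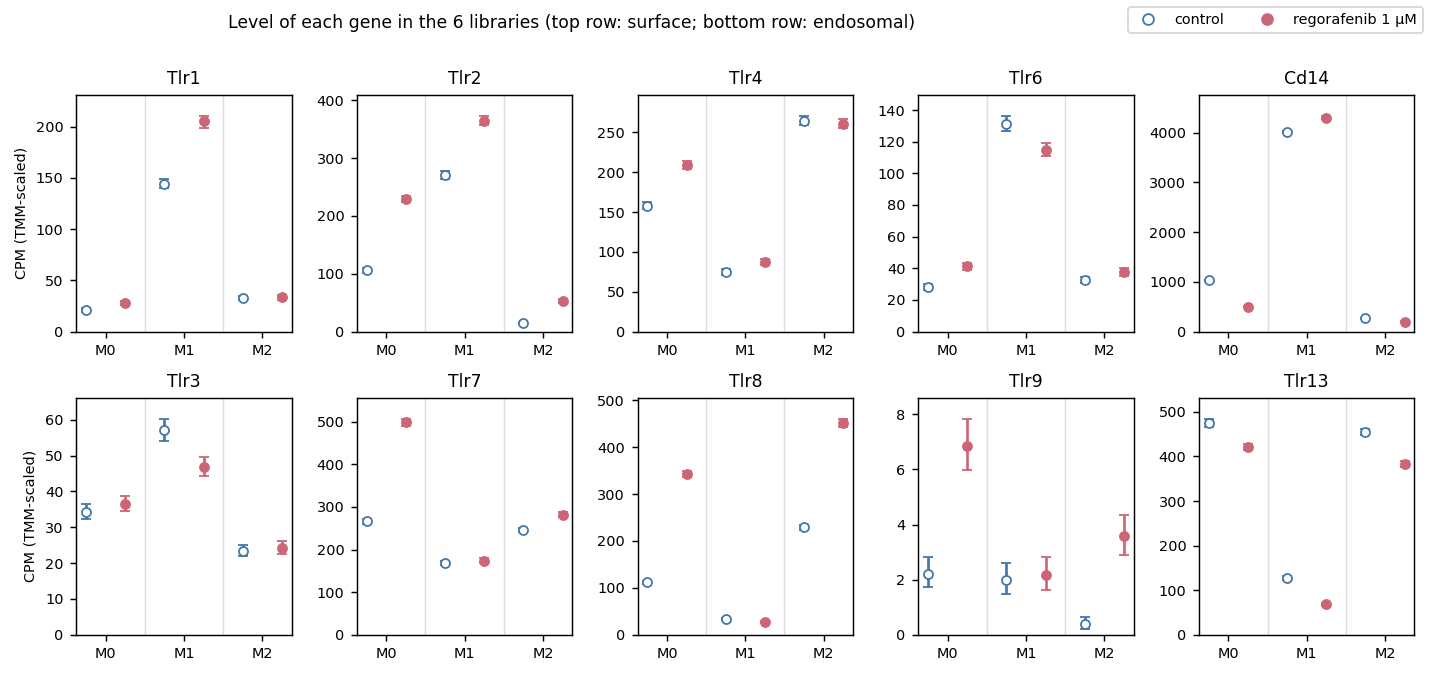
Level of each gene in the 6 libraries, in TMM-scaled CPM on a linear axis from 0, by state, with open points for control and filled points for regorafenib. Bars are 95% counting intervals of single libraries, and the M1 points are highest for Tlr1, Tlr2, Tlr6, Cd14 and Tlr3 and lowest for Tlr4, Tlr7, Tlr8 and Tlr13.

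Compared per kilobase of exon within a library, where scaling cancels, the make-up of the 9 receptors differed between states. The endosomal receptors made up 73.4% (control) and 70.9% (regorafenib) of the summed level in M0. Their share was 33.5% and 24.9% in M1, and 76.7% and 77.4% in M2. In both M1 libraries Tlr2 led, at 32.9% and 39.7%. Tlr13 led in the M0 and M2 controls, at 37.9% and 34.7%. With regorafenib, Tlr7 led in M0 at 26.6% and Tlr8 led in M2 at 33.6%. The leading receptor was thus an RNA receptor in every library but those of M1. Tlr8 stood at 0.477 times Tlr7 in M0 without drug and at 0.785 times with it, and at 1.06 and 1.82 times in M2. In the M1 libraries the same ratio was 0.225 and 0.179. Tlr2 stood at 1.24 and 2.03 times Tlr4 in M0, at 6.66 and 7.74 times in M1 and at 0.106 and 0.373 times in M2. The ratio of Tlr2 to Tlr4 was therefore higher in the regorafenib library than in the control of every state.

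**Figure D2:**
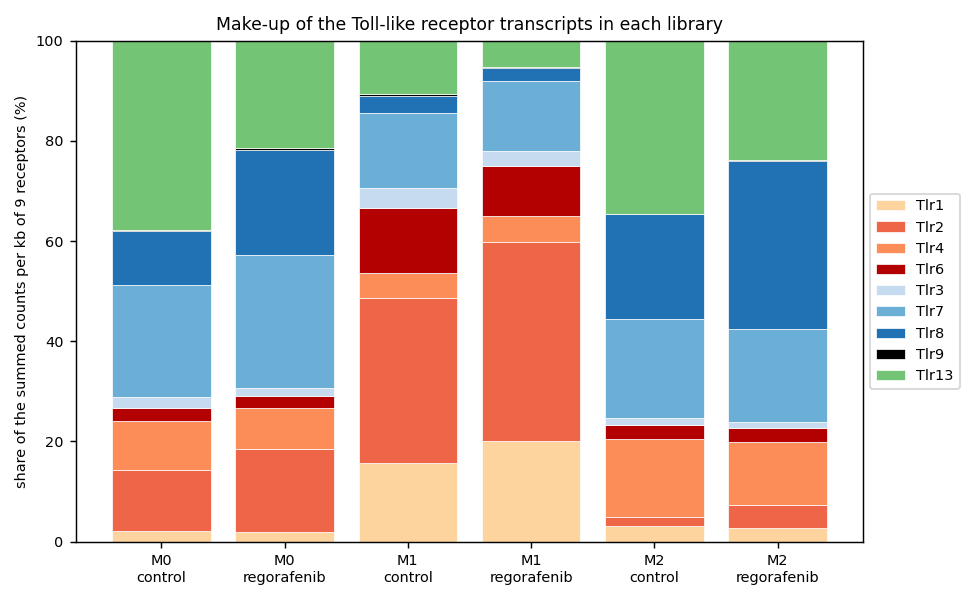
Share of each of the 9 receptors in their summed counts per kilobase, in percent, for the 6 libraries, with surface receptors in warm colours at the bottom and endosomal receptors above them. Surface receptors take 66.5% and 75.1% in the M1 libraries and 22.6% to 29.1% in the others.

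Polarization with IFN-γ and LPS was compared with M0 in each drug arm and in a fit over all 6 libraries. The lipoprotein receptors and Cd14 were higher in M1, and Tlr4 and most of the RNA receptors were lower. Without drug, Tlr1 was 6.89-fold higher in M1 (log2 ratio 2.78, 95% counting interval 2.66 to 2.91) and Tlr6 4.68-fold higher (2.23, 2.12 to 2.34). Cd14 was 3.9-fold higher and Tlr2 2.55-fold higher. Tlr13 was 3.75-fold lower, Tlr8 3.36-fold lower and Tlr4 2.11-fold lower. The LPS receptor and its co-receptor therefore differed in opposite directions. A gene was counted past the mark at 2-fold or more, given 10 or more counts in either library, and 4 members were higher and 3 lower. Among all 14168 genes with enough counts, 17.4% were higher and 19.7% lower, 37.1% in all. The median log2 ratio of the members was 0.28, against -0.05 for all these genes.

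Under regorafenib, M1 differed from M0 at 2-fold for 8 members, 3 higher (Cd14 8.61-fold, Tlr1 7.27-fold and Tlr6 2.78-fold) and 5 lower, where 16.3% of all genes were higher and 21.6% lower, 37.9% in all. Tlr8 was 12.5-fold lower, Tlr13 6.19-fold, Tlr9 3.18-fold, Tlr7 2.86-fold and Tlr4 2.41-fold. Tlr2 was 1.59-fold higher and so below the mark in this arm. The comparisons share libraries with those of the drug: the M0 regorafenib library, in which Tlr7, Tlr8 and Tlr9 were above their M0 control, is the reference here.

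The fit over both arms (edgeR's quasi-likelihood test with treatment and state as additive terms, adjusted over 14110 genes) is the only test with more than 1 library on each side. It asks for a change common to both arms, on 2 residual degrees of freedom. In M1, 9 of the 10 members passed an adjusted p of 0.05, 5 higher and 4 lower. Of all genes tested, 18.5% were higher and 18.2% lower, 36.7% in all. Tlr1 rose by 2.88 on the log2 scale (SE 0.19, edgeR adjusted p = 0.00056), Cd14 by 2.59 (SE 0.33, adjusted p = 0.00301) and Tlr6 by 1.91 (SE 0.22, adjusted p = 0.00237). Tlr8 fell by 2.60 (SE 0.46, edgeR adjusted p = 0.00859), Tlr13 by 2.20 (SE 0.24, adjusted p = 0.00205), Tlr4 by 1.12 (SE 0.17, adjusted p = 0.0055) and Tlr7 by 1.05 (SE 0.25, adjusted p = 0.0225). The 3 genes that rose most are a Tlr2 partner pair and the LPS co-receptor, and 3 of the 4 that fell are endosomal receptors for RNA. Among the markers of other cells, 3 also passed the fit in M1. Camp of neutrophils (108 and 91 counts in M1) and Xcr1 of dendritic cells (36 and 102 counts in M1) were at 0 to 1 counts elsewhere, and Dcn of fibroblasts (100 and 39 counts in M1) was at 3 to 9. Their part in the receptor values was not tested.

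Tlr2 (log2 1.11, edgeR adjusted p = 0.0447) and Tlr3 (log2 0.61, adjusted p = 0.0473) passed narrowly, and Tlr9 did not pass (log2 -0.75, adjusted p = 0.427). The call of Tlr2 was lost without the M0 control (edgeR adjusted p = 0.0925), the M0 regorafenib library (0.063) or the M1 control (0.166). Without the M1 control the log2 change of Tlr2 was 0.55. The call of Tlr7 was lost without the M0 regorafenib library (log2 -0.65, edgeR adjusted p = 0.106) or the M1 regorafenib library (log2 -0.79, adjusted p = 0.082). Tlr3 kept its call in 3 of 9 alternatives. Leaving out the M0 control, the M0 regorafenib library, the M1 control or either M2 library each ended it, with edgeR adjusted p between 0.0909 and 0.231. Tlr1, Tlr4, Tlr6, Tlr8, Tlr13 and Cd14 passed in all 9 alternatives.

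The scaling mattered for M1. Scaling by total counts moved the median log2 ratio of all genes between M1 and M0 to -0.49 without drug and -0.51 under regorafenib, from -0.05 and -0.09 with TMM. It left 3 members higher and 4 lower without drug, since Tlr2 went to a log2 ratio of 0.91 and Tlr7 reached -1.11. Of all genes past 2-fold, 30.3% were then higher, against 46.8% with TMM. Under regorafenib those shares were 27.7% and 43.1%, and the log2 ratio of Tlr3 changed from 0.36 to -0.06.

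**Figure D3:**
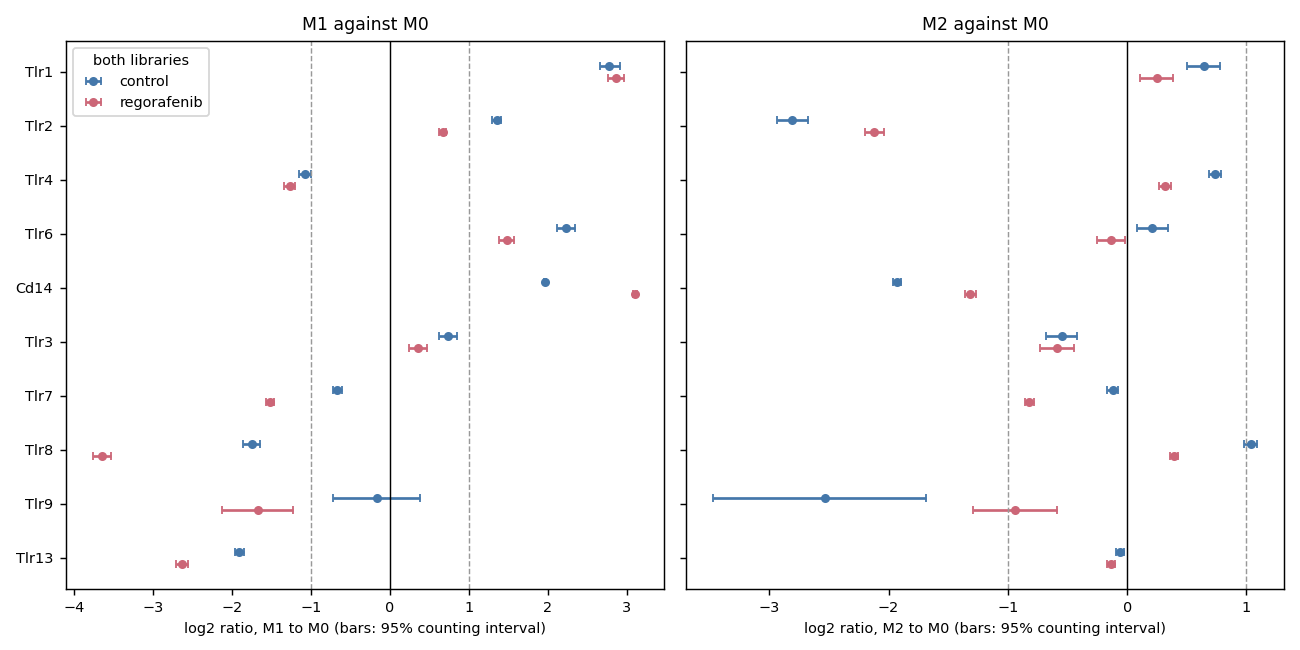
Log2 ratio of M1 to M0 (left) and of M2 to M0 (right) for each gene, between the 2 control libraries and between the 2 regorafenib libraries, with 95% counting intervals and dashed lines at 2-fold. Tlr1, Tlr6 and Cd14 lie beyond 2-fold on the higher side of M1 in both arms, and Tlr2 and Cd14 beyond 2-fold on the lower side of M2 in both arms.

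Polarization with IL4 was set against M0 in the same way. Without drug, Tlr2 was 6.99-fold lower in M2 (log2 ratio -2.81, -2.94 to -2.68), Cd14 3.8-fold lower (-1.93, -1.96 to -1.90) and Tlr9 5.77-fold lower on 14 against 68 counts (-2.53, -3.47 to -1.69). Tlr8 was 2.05-fold higher (1.04, 0.98 to 1.09) and went to 0.95 when scaled by total counts. These are 1 member higher and 3 lower, where 4.69% of 13830 genes were higher and 7.61% lower, 12.3% in all. Tlr4 was 1.67-fold higher and Tlr13 differed by a log2 ratio of -0.06.

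Under regorafenib, 2 members were past 2-fold between M2 and M0, Tlr2 (4.34-fold lower) and Cd14 (2.49-fold lower), where 4.41% of all genes were higher and 5.18% lower, 9.59% in all. Zbtb46 of dendritic cells was at 5 counts in M0 and 59 in M2 in this arm, and its part in the receptor values was not tested. In the fit over both arms, 0 of the 10 members passed in M2, and of all genes 0.184% were higher and 0.0142% lower, 0.198% in all. Tlr2 came nearest (log2 -2.41, SE 0.34, edgeR adjusted p = 0.0743), followed by Cd14 (log2 -1.64, SE 0.32, adjusted p = 0.137). At an unadjusted p under 0.05 there were 5 members, Tlr1, Tlr2, Tlr3, Tlr4 and Cd14. DESeq2 called Tlr2 (adjusted p = 1.35e-08) and Cd14 (adjusted p = 6.11e-05). Tlr2 was also called by edgeR when any 1 of the 6 libraries was left out, with a log2 change from -1.93 without the M2 control to -2.98 without the M2 regorafenib library. Cd14 was called without the M0 regorafenib library (log2 -2.05), the M1 control or the M1 regorafenib library (log2 -1.61 each).

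Regorafenib was compared with control within each state. Tlr2, Tlr8 and Tlr9 had the highest ratios in M0 and in M2, Cd14 was lower in both, and in M1 the log2 ratios lay between -0.29 and 0.51 apart from that of Tlr13. In M0, Tlr9 was 3.1-fold higher (log2 ratio 1.63, 1.23 to 2.04), Tlr8 3.08-fold higher (1.62, 1.57 to 1.68) and Tlr2 2.16-fold higher (1.11, 1.05 to 1.17). Tlr7 was 1.87-fold higher. Cd14 was 2.06-fold lower (-1.04, -1.07 to -1.02) and reached -0.96 with upper-quartile scaling. These are 3 members higher and 1 lower at 2-fold, where 9.47% of 13964 genes were higher and 10.9% lower, 20.4% in all. Of the 10 members, 8 had a ratio above control, and their median log2 ratio was 0.49, against 0.0 for all genes. In the same pair of libraries the summed level of the macrophage markers went from 30000 to 48400 CPM and Mpo from 80.7 to 155 CPM. Of the markers of other cells, Col1a1 (37 to 114 counts) and Col3a1 (4 to 13 counts) of fibroblasts were past the mark and higher with regorafenib, and Zbtb46 of dendritic cells (14 to 5 counts) was past it and lower. Their part in the receptor values was not tested.

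In M1, 0 members were past 2-fold, as against 1.76% of 13440 genes that were higher and 3.46% that were lower, 5.22% in all. Tlr13 came nearest, at 1.86-fold lower (log2 ratio -0.90, -0.98 to -0.81), from 3274 to 1640 counts. Tlr1 was 1.42-fold and Tlr2 1.35-fold higher, and Tlr8, which was higher with regorafenib in the other states, was 1.21-fold lower. The intervals of Tlr7 (-0.01 to 0.11) and Tlr9 (-0.46 to 0.71) spanned 0. For Tlr9, on 51 and 52 counts, a change smaller than these bounds was not detectable at this depth. In this pair Xcr1 went from 36 to 102 counts and Dcn from 100 to 39, and their part in the receptor values was not tested.

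In M2, Tlr9 was 9.32-fold higher with regorafenib (log2 ratio 3.22, 2.41 to 4.14), on 100 against 14 counts, and Tlr2 was 3.48-fold higher (1.80, 1.66 to 1.94), from 554 to 1478 counts. Tlr8 lay just under the mark at 1.97-fold (0.98, 0.94 to 1.02) and just above it at 1.05 when scaled by total counts. These are 2 members higher and 0 lower, where 6.15% of 13813 genes were higher and 5.07% lower, 11.2% in all. Cd14 was 1.35-fold lower. The ratio of Tlr4 was -0.02 and changed sign under other scalings, up to 0.06. The macrophage markers went from 22000 to 33600 CPM in sum between these libraries and Mpo from 87.0 to 130 CPM. Zbtb46 of dendritic cells went from 15 to 59 counts. Their part in the receptor values was not tested here either.

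The counting interval of Tlr2 lay above 0 in each of the 3 states and that of Tlr13 below 0 in each, and the log2 ratio of Tlr2 went from 0.43 in M1 to 1.80 in M2. In the fit over the 3 states, 0 members passed the test and 0 of the 14110 genes did (0.0%), with 1637 genes at an unadjusted p under 0.05. The members among these 1637 were Tlr2, with a log2 change of 1.12 (SE 0.27, edgeR adjusted p = 0.322), and Tlr9, with 1.59 (SE 0.57, edgeR adjusted p = 0.41). Over the 9 alternatives the log2 change ran from 0.78 to 1.46 for Tlr2 and from 0.92 to 2.28 for Tlr9. DESeq2 called 301 genes, among them Tlr2 (adjusted p = 0.0152). Leaving out the M1 control or the M1 regorafenib library, so that the drug was judged on M0 and M2 alone, gave 726 and 814 genes in edgeR. Tlr2 (log2 1.46 in both) and Tlr8 (log2 1.31 in both) were then called, with edgeR adjusted p of 0.038 and 0.0358 for Tlr2 and of 0.0398 and 0.0375 for Tlr8. A difference between states in the response could not be tested with 1 library per condition, and the fit counts it as residual spread.

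**Figure D4:**
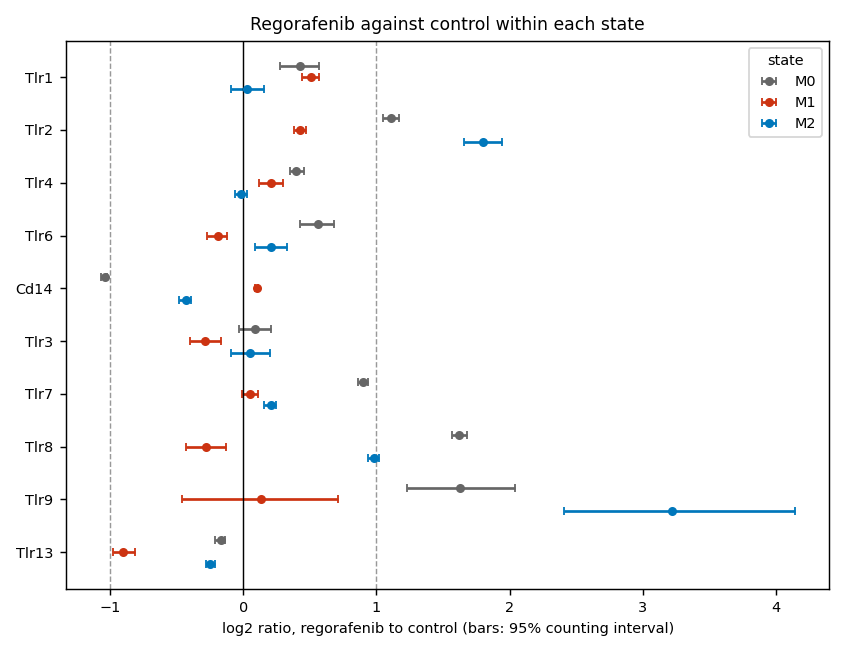
Log2 ratio of regorafenib to control for each gene in M0, M1 and M2, with 95% counting intervals of single libraries and dashed lines at 2-fold. Tlr2, Tlr8 and Tlr9 lie to the right in M0 and M2, and in M1 all genes lie between -0.90 and 0.51.

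The other mouse Toll-like receptors were rare. Tlr5, the receptor for flagellin, had 38 and 14 counts in M0, 0 in both M1 libraries and 3 and 1 in M2. It was at least 10.7-fold lower in M1 than in M0 without drug, against a floor of 3 counts per library, and it fell in the fit over both arms (edgeR adjusted p = 0.00675). Tlr11 had 1 count in all and Tlr12 had 0.

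The genes that serve these receptors were followed as a list of 43, of which 40 had enough counts for the fit and include Tlr5. In M1, 15 rose and 8 fell over both arms, where 36.7% of all genes passed the same test. Of the 6 adaptors, which couple the receptors to kinases, 4 rose, with Ticam2 at a log2 change of 1.67 and Myd88 at 1.08, and Sarm1 fell by 2.48. Of the 12 kinases and ligases, 5 rose, led by Peli1 at 2.18 and Irak2 at 1.89, and Irak1 fell by 0.71. Of the 6 negative regulators, 4 rose, with Tnfaip3, which removes ubiquitin chains from the pathway, at 4.12 and Irak3, an inactive kinase that dampens it, at 3.88. The other negative regulator that moved, Sigirr, was at 104 and 136 counts in M0 and at 4 and 1 in M1. The median log2 change was 1.1 for the adaptors, 0.45 for the kinases and ligases and 1.70 for the negative regulators, against -0.01 for all genes.

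The trafficking and processing genes of the endosomal receptors were mixed in M1, with 2 of 11 higher and 3 lower. Slc15a3, a transporter of the endolysosome, rose by 4.73, and Hsp90b1, the chaperone that folds most of these receptors, by 1.80. Pld4 (log2 -2.32), the protease Lgmn (log2 -2.18), which cuts endosomal receptors, and Slc15a4 (log2 -1.27) fell. Unc93b1, which carries the endosomal receptors out of the endoplasmic reticulum, did not pass the test (log2 0.48, edgeR adjusted p = 0.145) and was at 335, 547 and 290 CPM in the M0, M1 and M2 controls. Of the co-receptors, Cd180, a relative of Tlr4, fell by 1.68, and Ly96, which completes the LPS receptor, did not pass (log2 0.49, edgeR adjusted p = 0.228).

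In M2 and for regorafenib, 0 of the 40 genes passed the fit. At 2-fold, regorafenib against control had 1 higher and 3 lower in M0 of 40 with enough counts, 0 in M1 of 37 and 1 higher and 1 lower in M2 of 39. Over all genes, 20.4% were past the mark in M0, 5.22% in M1 and 11.2% in M2. Ly86, the partner of Cd180, was 3.93-fold higher in M0 (82 to 346 counts) and 5.1-fold higher in M2 (43 to 168 counts). Cd36, a scavenger receptor that helps Tlr2, was 2.44-fold lower in M0 and 3.77-fold lower in M2. The remaining genes past the mark were Cd180 (2.12-fold lower) and Tlr5 (38 to 14 counts), both lower in M0. Unc93b1 was 1.77-fold higher in M0 and 1.79-fold higher in M2, below the mark.

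**Figure D5:**
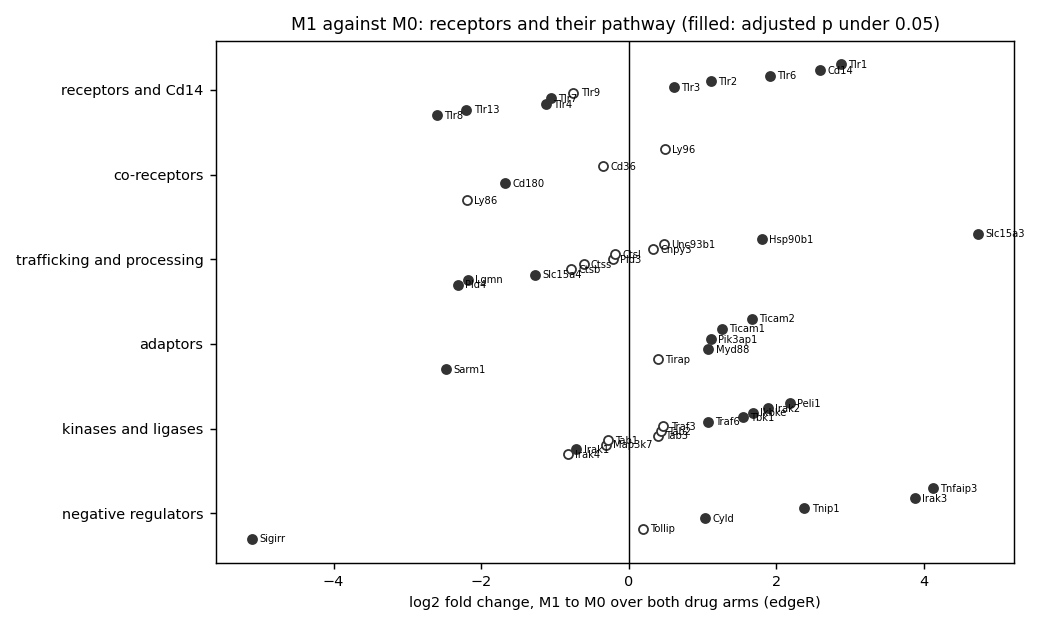
Log2 fold change of M1 to M0 over both drug arms for the receptors with Cd14 and for the genes of 5 pathway lists, each point 1 gene, filled where the edgeR adjusted p is under 0.05. Tnfaip3 and Irak3 lie at 4.12 and 3.88, and Sigirr, farthest to the left, rests on 4 and 1 counts in M1.

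The pattern of the members over the 6 libraries was compared with that of 11312 genes with at least 100 counts in their highest library. Tlr1 was most like Anapc4 (Pearson r of log2 CPM 0.999 over 6 libraries), Tlr2 like Slc39a4 (0.993), Tlr3 like Tmem38b (0.996) and Tlr6 like Tgif1 (1.0). Tlr7 was most like Ino80b (0.991), Tlr8 like Pip4p1 (0.999), Tlr9 like E130307A14Rik (0.992), Tlr13 like Ctsk (0.999) and Cd14 like Rasgrf1 (0.999). With 6 points that share libraries and scaling such values are common, and between 28 genes (Tlr9) and 849 genes (Tlr6) had an r above 0.95 with a member. Among the members, Tlr1 was nearest to Tlr6 (r 0.97) and Tlr4 to Tlr8 (0.96), and Tlr4 was farthest from Cd14 (-0.99).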

How the data were processed

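The authors deposited raw counts per gene, whole numbers that were not normalized. By their methods, paired reads of 100 bases from a stranded mRNA kit went through cutadapt 2.4 and were aligned and counted by STAR 2.7.2a, on GRCm38 with the annotation of Gencode M19. The strand setting is not given in the sources used here. Names and positions came from Gencode M21, on the same build. Of 54446 IDs, 53229 matched with their version, 1180 without it and 37 had no name. Groups came from the labels.

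Counts were scaled with TMM (edgeR 4.0.16, R 4.3.3; factors 0.82 to 1.12), with 0.5 counts in place of 0. Intervals are conditional exact binomial at 95%, for ratios of 2 libraries and exact Poisson for levels. Genes were read against a 2-fold mark, because the probabilities of NOISeq without replicates, which the study used, come from simulated replicates. The additive fit used glmQLFTest after filterByExpr with Benjamini-Hochberg adjustment, and SE is the log2 change divided by the root of F. The fit has 2 residual degrees of freedom, and 1 when a library is left out, whose lone partner is assumed to vary like the others. Alternatives were 3 scalings, 1 CPM added, other count minimums, marks of 1.5-fold and 3-fold, DESeq2 1.42.0, no filter and leaving out each library. Both steps were tested on simulated data. All members, the pathway genes past a mark or test (up to 6 a list), Tlr5, Tlr11 and Tlr12 were named. For likeness, the nearest gene was named, except for Tlr4. Values of a polarization marker and of that nearest gene are not reported here. Unc93b1 and Ly96 were chosen after their values were seen. The members and lists were chosen with earlier results of these data known. With 1 library per condition, the residual of the additive fit is how the response differs between states or drug arms. Technical spread may be part of it and cannot be told apart. The p-values measure only this spread between these libraries.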

Additional observations from a re-analysis of the deposited data

Results flagged for a closer look

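For 3 genes the ratio of 2 libraries had opposite signs between states or between drug arms, with counting intervals that exclude 0 and the same signs under all 4 scalings. The differences were not tested, since each condition had 1 library. Tlr8 had a log2 ratio of regorafenib to control of 1.62 in M0 and 0.98 in M2, and of -0.28 in M1 on 859 and 660 counts. Cd14 had -1.04 in M0 and -0.43 in M2, and 0.10 in M1, where it held 103851 and 103649 counts. Tlr6 had 0.56 in M0 and 0.21 in M2, and -0.19 in M1. Tlr6 also differed between M2 and M0 by 0.21 without drug and by -0.14 under regorafenib. In all 3 genes the ratio in M1 had the opposite sign to those in M0 and M2. Tlr1 and Tlr6 share part of their sequence, and the share of the Tlr6 values that this touches was not tested.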

How the results depend on the processing

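The number of members past the mark changed most with the mark itself. At 3-fold it was 2 for regorafenib in M0 (4 at 2-fold), 5 for M1 against M0 under regorafenib (8) and 1 for M2 against M0 under regorafenib (2). At 1.5-fold it was 1 for regorafenib in M1 (0) and 5 for M2 against M0 under regorafenib (2). Total counts moved Tlr2 and Tlr7 (M1 without drug) and Tlr8 (M2 against M0 and regorafenib in M2) across the mark, and upper-quartile factors moved Cd14 (regorafenib in M0), Tlr4 (M1 without drug) and Tlr8 (regorafenib in M2). DESeq2 size factors and 1 CPM added to both values moved 0 members.

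In the additive fit, M1 calls numbered 5174 and stayed within 4118 to 5532. Drug calls were 333 without a filter and 301 with DESeq2, and M2 calls 408 and 416, against 0 and 28. Leaving out 1 library gave 0 to 814 drug calls (814 without the M1 regorafenib library, 726 without the M1 control) and 77 to 294 M2 calls (294 without the M0 regorafenib library, 77 without the M2 control). The sign of 4 values changed, none of them called: Tlr3 for the drug, -0.10 to 0.09 over the fits without 1 library (0.09 without either M1 library, -0.03 with all), Tlr9 in M1, -1.92 to 0.22 (0.22 without the M1 regorafenib library, -0.75 with all), Tlr6 in M2, -0.22 to 0.32 (-0.22 without the M0 control), and Tlr13 in M2, -0.27 to 0.12 (0.12 without the M0 regorafenib library, 0.06 without the M2 control). The cause was not tested. Counts over all genes past the mark moved by over 1.5 times with the filter, the mark and 1 CPM added to both values: 1343 to 6688 for regorafenib in M0 (2851 as reported, 1495 with 1 CPM added), 154 to 4139 in M1 (701, 154 with 1 CPM added), 565 to 5275 in M2 (1551, 565 or 4.09% of genes with 1 CPM added) and 451 to 5387 for M2 against M0 in either arm (1700 and 1328, 780 and 451 with 1 CPM added). The highest of each were without a minimum count. Among the members, depth limits Tlr9 most (14 to 226 counts). Of the other genes described, Tlr5 (0 to 38), Tlr11, Tlr12 and Sarm1 (3 to 43) also had few counts.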
